A study of Mus musculus with 8 samples.

Results

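Nascent transcription was compared between early G1 cells, taken 1 h after release from mitosis, and cycling cells, over all genes of the deposited PRO-seq table. Of the 8 libraries of the study, 4 belong to these groups, 2 early G1 and 2 asynchronous. The table holds 14861 genes, of which 14661 had a mean signal of at least 0.5 and a value above 0 in both groups and were compared. All groups were mouse FUCCI2 induced pluripotent stem cells, a clonal line with a fluorescent reporter of the cell cycle, grown on irradiated feeder cells in KO-DMEM with serum, LIF and inhibitors of MEK and GSK3. Early G1 cells had been held in mitosis with nocodazole at 200 ng/ml for 6 h. They were then shaken off and put into fresh medium. Asynchronous cells were never given the drug. The study's other groups were mitotic cells taken straight after shake-off and late G1 cells released for 3 h, and their values are given only beside those of the genes described.

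PRO-seq marks the RNA made by engaged RNA polymerases in isolated nuclei, so that its signal over a gene follows ongoing transcription rather than stored mRNA. Transcription is largely shut down in mitosis and resumes as cells divide and the nucleus reforms. Genes of the mitotic programme normally peak in G2 and are then silenced in G1 by the DREAM repressor complex, which acts at CHR elements near their start sites. Nocodazole depolymerizes microtubules, and a long mitotic arrest is known to activate p53.

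Both libraries of a group were merged into 1 column, so no spread between libraries could be computed and no difference below has a replicate check. No test was run. Depth is unknown because no counts were used here. The early G1 column sums to 361203 units of normalized signal and the asynchronous column to 309144, with medians of 11.8 in early G1 and 9.43 in asynchronous cells. Early G1 cells differ from asynchronous cells in cell-cycle stage, in drug exposure and in having been shaken off, and these cannot be told apart in this design. In bulk samples, fewer cells of a type and less RNA per cell cannot be told apart either.

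Most genes were transcribed at a similar or slightly higher level in early G1 cells than in asynchronous cells. The median gene stood at 0.30 on the log2 scale, a ratio of 1.23, and 10668 genes (72.8%) lay within 2-fold. A gene was called higher or lower only where its early G1 signal differed by 2-fold or more, which 2596 genes did upwards (17.7% of those compared) and 1397 downwards (9.53%). A 4-fold difference was reached by 377 genes in the higher direction and 309 in the lower. This balance depends on the scaling, which moves the median gene: with the column medians set equal, 1277 genes (8.71%) were higher and 2181 (14.9%) lower. Values for groups of genes are therefore given relative to the median gene. Lower genes were more often low in signal, with 72.2% of them under the median of mean signal, against 47.5% of the higher genes.

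**Figure D1:**
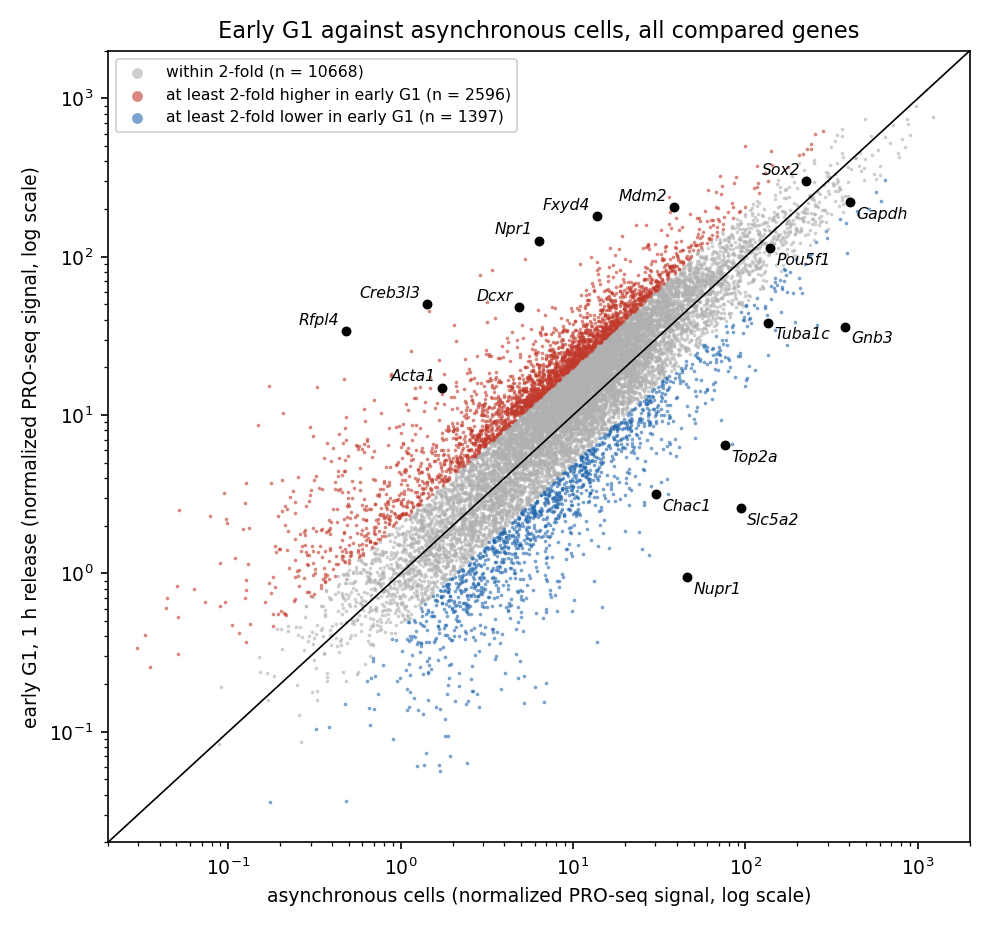
Each point is 1 gene, with its normalized PRO-seq signal in early G1 cells on the vertical axis and in asynchronous cells on the horizontal axis, both logarithmic, and genes at least 2-fold apart are coloured. More genes lie above the 2-fold band (2596) than below it (1397), and the mitotic gene Top2a lies far below it.

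The cells carried the pluripotency programme at both stages. The 29 naive pluripotency factors summed to 3175 units in early G1 and 3006 in asynchronous cells. Markers of fibroblast feeder cells were present, none at 0 in either group: the 16 in the table summed to 201 in early G1 and 142 in asynchronous cells. They did not move together. Fn1 (fibronectin) alone made up 106 units in early G1 and 53.4 in asynchronous cells. Twist1, a mesenchymal transcription factor, Pdgfra and Vim were higher in early G1, whereas Col1a1 (collagen), Pdgfrb and Thy1 were lower. Col1a1 had a signal of 1.97 in early G1, against 5.44 in asynchronous cells. Trophectoderm markers summed to 141 in early G1 and 128 in cycling cells, and primitive endoderm markers to 27.2 in early G1 and 21.8 in asynchronous cells. The part of feeder cells in the results was not tested.

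Among genes at or above the median signal, the 12 with the highest early G1 to asynchronous ratio were Rfpl4, Creb3l3, Iqcf1, Bex3, Prtn3, Npr1, Plppr3, Tmem221, Slc35a2, Dlg4, Fxyd4 and Cd79a. Several are known from other tissues: Creb3l3 is a liver transcription factor, Prtn3 a neutrophil protease, Dlg4 the postsynaptic scaffold PSD-95 and Cd79a a B cell receptor subunit. Rfpl4, an oocyte RING finger gene, had a signal of 33.9 in early G1 cells and 0.480 in cycling cells, the largest difference of the 12 (log2 ratio 5.87). Creb3l3 had 50.4 in early G1 and 1.42 in cycling cells (log2 ratio 5.05). Bex3, a brain-expressed X-linked gene, had 82.3 in early G1, against 3.37 in asynchronous cells. For all 12 the early G1 signal was above both the mitotic and the late G1 signal. Picking genes for a high early G1 value favours this order, so it is no separate result. The signal cut-off was on the mean of both columns, which a gene can reach through its early G1 value alone. Rfpl4 had 0.587 in mitosis and 3.63 in late G1. Creb3l3 had 0.419 in mitosis and 3.00 in late G1. Even so, 10 of the 12 were still at least 2-fold above asynchronous cells in late G1, by plain ratio. Npr1, the natriuretic peptide receptor, kept most of its signal, with 127 in early G1 and 123 in late G1, against 6.32 in cycling cells, and it was listed at 0 in mitosis. Fxyd4, a regulator of the sodium pump, had 180.4 in early G1 cells and 13.7 in cycling cells. Plppr3 and Prtn3 start 252 bp apart on opposite strands of chromosome 10, and Plppr3 overlaps Ptbp1 by RefSeq span. Plppr3 had 96.8 in early G1 and 5.28 in cycling cells, and Prtn3 25.3 in early G1, against 1.15 in asynchronous cells. The sources used here do not say how reads between such neighbours were assigned.

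The 12 lowest ratios belonged to Nupr1, Slc5a2, Rln3, Fpr3, Gpr162, Npff, Top2a, Ccr10, Gnb3, Chac1, Apobr and Atoh7. Nupr1 (a stress-induced chromatin protein) and Chac1 (which degrades glutathione) are targets of the stress factor ATF4, and Top2a (topoisomerase II alpha) is a G2 and mitosis gene. Nupr1 had a signal of 0.949 in early G1 cells and 45.8 in cycling cells (log2 ratio -5.45). Top2a had 6.48 in early G1 and 76.3 in cycling cells (log2 ratio -3.54). Chac1 had 3.17 in early G1, against 30.4 in asynchronous cells (log2 ratio -3.22). In late G1 these genes stood at 1.52 for Nupr1, 12.5 for Top2a and 6.58 for Chac1. Slc5a2, the kidney glucose transporter SGLT2, had 2.58 in early G1 cells and 93.7 in cycling cells, but stood at 60.8 in late G1. Npff, a neuropeptide gene, had 6.54 in early G1 and 83.2 in cycling cells and stood at 102 in late G1, above the asynchronous level. Gnb3, a G protein subunit, had 36.1 in early G1, against 379 in asynchronous cells, and 36.1 in late G1. In this set 11 of 12 genes were higher in late G1 than in early G1, and 9 of 12 were still at least 2-fold under asynchronous cells. Picking genes for a low early G1 and a high asynchronous value favours both counts. By their RefSeq spans 5 of the 12 overlap another gene, among them Nupr1 with Gm39087, Slc5a2 with Rusf1 and Ccr10 with Cntnap1. Gnb3 starts 6750 bp from the mitotic gene Cdca3, which was also lower in early G1.

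**Figure D2:**
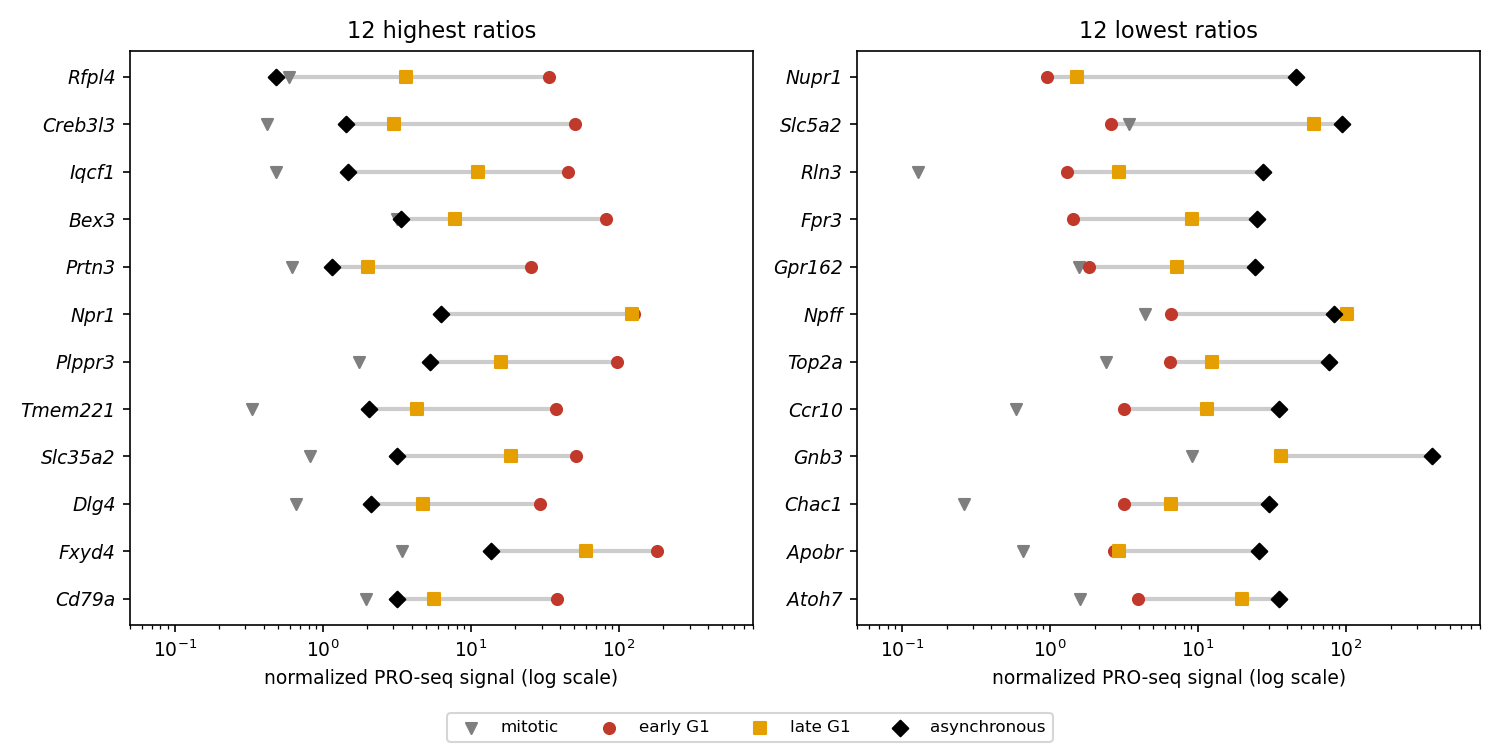
Normalized PRO-seq signal (logarithmic horizontal axis) in the 4 groups for the 12 genes with the highest and the 12 with the lowest ratio of early G1 to asynchronous cells, with a grey line joining the early G1 and asynchronous values; mitotic values of 0 (Npr1, Nupr1 and Fpr3) are not drawn. In the left panel early G1 is the highest of the 4 values for every gene, and in the right panel late G1 lies between early G1 and asynchronous cells for 10 of 12 genes. Both patterns are favoured by picking the genes on this ratio.

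The G2 and mitosis genes were the list furthest below the median gene. Of 55 compared, 23 were lower in early G1 than in asynchronous cells and none was higher, against 9.53% and 17.7% of all genes. Their median was -1.03 relative to the median gene on the log2 scale. Ndc80, the kinetochore subunit that holds microtubules, had 0.582 in early G1 cells and 9.87 in cycling cells (log2 ratio -3.87). Plk1, the polo-like kinase that drives mitotic entry, had 7.17 in early G1 and 51.1 in cycling cells (log2 ratio -2.81). The promoters of the genes with the lowest ratios are shown for these elements, 250 bases before to 50 after the RefSeq start, on GRCm38.p6, with CHR elements (TTTGAA) and CCAAT boxes of either strand in capitals.
Ndc80, chr17:71526808-71527107, minus strand: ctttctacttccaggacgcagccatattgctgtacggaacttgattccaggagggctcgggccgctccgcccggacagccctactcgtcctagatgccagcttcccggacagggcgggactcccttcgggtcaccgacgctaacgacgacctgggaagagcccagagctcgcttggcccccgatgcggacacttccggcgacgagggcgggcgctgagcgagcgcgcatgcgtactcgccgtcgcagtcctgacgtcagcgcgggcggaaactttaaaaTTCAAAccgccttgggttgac
Plk1, chr7:122159185-122159484, plus strand: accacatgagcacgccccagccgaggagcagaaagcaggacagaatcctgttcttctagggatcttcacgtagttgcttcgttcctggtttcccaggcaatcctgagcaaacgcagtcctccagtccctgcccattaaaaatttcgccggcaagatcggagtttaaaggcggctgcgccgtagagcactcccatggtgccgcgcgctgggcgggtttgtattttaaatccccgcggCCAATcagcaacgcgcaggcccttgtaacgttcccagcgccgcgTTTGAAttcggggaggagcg
Top2a, chr11:99024140-99024439, minus strand: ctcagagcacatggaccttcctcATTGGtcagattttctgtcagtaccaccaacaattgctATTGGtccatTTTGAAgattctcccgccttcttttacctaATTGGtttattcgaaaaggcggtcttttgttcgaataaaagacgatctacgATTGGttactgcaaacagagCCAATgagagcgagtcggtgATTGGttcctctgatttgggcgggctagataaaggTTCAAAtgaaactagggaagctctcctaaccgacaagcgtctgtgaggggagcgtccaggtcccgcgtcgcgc
A CHR element lies just downstream of the start in Ndc80 and Plk1. Top2a holds 6 CCAAT boxes and 2 CHR elements.

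Members of the list are described here by role, several of them picked with their values in view. Among regulators of entry, Ccnb1 (cyclin B1) had 22.7 in early G1, against 67.4 in asynchronous cells. Its kinase partner Cdk1 had 25.2 in early G1 cells and 69.4 in cycling cells, and the phosphatase Cdc25b, which activates that complex, had 1.53 in early G1 and 5.53 in cycling cells. All 3 were lower. The spindle kinases Aurka and Aurkb were lower as well, with Aurka at 21.2 in early G1, against 48.7 in asynchronous cells, and Aurkb at 7.09 in early G1 cells and 20.7 in cycling cells. The spindle factor Tpx2, a partner of Aurka, had 3.68 in early G1 and 11.4 in cycling cells. Cenpa and Mki67, which sit on chromosomes, were also lower. Cenpa, the centromeric histone, had 9.47 in early G1, against 50.3 in asynchronous cells. Mki67 (Ki-67, the coat of mitotic chromosomes) had 4.12 in early G1 cells and 22.8 in cycling cells. Cdc20 and Ube2c work with the anaphase-promoting complex and were lower, with Cdc20 at 24.3 in early G1 and 67.6 in cycling cells and the E2 enzyme Ube2c at 42.9 in early G1, against 133 in asynchronous cells. Cdca3, a trigger of mitotic entry, had 16.6 in early G1 cells and 101 in cycling cells. Other members stayed within 2-fold. Ccna2 (cyclin A2) had 48.0 in early G1 and 42.0 in cycling cells, the kinesin Kif20a 156 in early G1, against 114 in asynchronous cells, and Ckap2, which binds microtubules and was the highest of the list, 30.3 in early G1 cells and 16.3 in cycling cells. With the medians set equal, 30 of the 55 were lower, where 14.9% of all genes were lower.

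Targets of p53 were the list furthest above the median gene. Of 35 compared, 24 were higher in early G1 (68.6%, against 17.7% of all genes) and none was lower. The list median was 1.06 relative to the median gene. With the medians set equal, 18 were higher, where 8.71% of all genes were higher. The feedback inhibitor Mdm2, the ubiquitin ligase of p53 itself, had 207 in early G1 and 38.4 in cycling cells (log2 ratio 2.43). Plk2, a stress-responsive polo-like kinase, had 239 in early G1, against 36.1 in asynchronous cells. Dcxr, a carbonyl reductase, had 48.2 in early G1 cells and 4.85 in cycling cells. In contrast with the mitotic genes, all 3 stood above cycling cells already 1 h after release. The next members, with known roles in cell-cycle arrest or apoptosis, are among the 24 higher ones, most of them picked with their values in view. Cdkn1a (p21), a CDK inhibitor, had 277 in early G1 and 117 in cycling cells. Ccng1 (cyclin G1) had 185 in early G1, against 48.0 in asynchronous cells, and the antiproliferative gene Btg2 258 in early G1 cells and 67.1 in cycling cells. Apaf1, the core of the apoptosome, had 34.8 in early G1 and 6.61 in cycling cells. Pmaip1 (NOXA), which opposes survival proteins of the BCL2 family, had 57.5 in early G1, against 11.8 in asynchronous cells, and its relative Bax 170.1 in early G1 cells and 64.9 in cycling cells. The death receptor Fas had 3.92 in early G1 and 0.695 in cycling cells. Members that stayed within 2-fold included Gadd45a, at 65.7 in early G1, against 57.9 in asynchronous cells, and Plk3, at 13.9 in early G1 cells and 17.7 in cycling cells. In late G1 Mdm2 stood at 288, Cdkn1a at 202 and Plk2 at 198. None of the 28 list promoters with a RefSeq sequence held the p53 motif searched (CATG, any 6 bases, then CATG), which says only that these letters are not in those windows.

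Genes of the next cell-cycle phase were close to the median gene. Of 45 replication and S phase genes, 2 were higher in early G1 (4.44%, against 17.7% of all genes) and none lower. The list median was -0.02 relative to the median gene. The 2 were Rrm2 and Mcm7. Rrm2, the ribonucleotide reductase subunit that supplies nucleotides, had 118 in early G1 and 27.2 in cycling cells, and it was listed at 0 in mitosis. Mcm7, part of the replicative helicase, had 123 in early G1, against 56.3 in asynchronous cells. Of 67 replication-dependent histone genes listed, only 15 were in the table, so most of the class was not seen. Those 15 were split, 4 higher (26.7%, against 17.7% of all genes) and 2 lower (13.3%, against 9.53%). Hist1h2bc had 191 in early G1 cells and 36.3 in cycling cells, whereas Hist1h2bh had 64.7 in early G1 and 162 in cycling cells. Hist1h2bc has a RefSeq span of 8282 bp, against 522 bp for Hist1h2bh, and starts 251 bp from Hist1h2ac. Histone genes have near-identical copies, so reads may have been divided among them. Among the 21 G1 cyclins and CDK inhibitors, the restriction point gene Rb1 was higher with 15.3 in early G1, against 4.18 in asynchronous cells, and its relative Rbl2 with 23.7 in early G1 cells and 10.2 in cycling cells. Ccne1 (cyclin E1) was lower, with 9.09 in early G1 and 24.9 in cycling cells. Ccnd1 (cyclin D1) had 30.8 in early G1, against 52.5 in asynchronous cells, and stayed within 2-fold.

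Immediate early genes, the fast first answer of cells to growth factors or stress, gave a mixed picture. Of 39, 10 were higher (25.6%, against 17.7% of all genes) and 2 lower (5.13%, against 9.53%). The AP-1 subunits Fos and Jun were both higher. Fos had 26.4 in early G1 cells and 10.9 in cycling cells, and Jun had 119 in early G1 and 48.3 in cycling cells. Egr1 was almost equal, with 16.2 in early G1, against 16.0 in asynchronous cells, and Myc had 22.7 in early G1 cells and 17.5 in cycling cells. The lower ones were Ier3 and Ier2, with Ier3 at 19.5 in early G1 and 66.5 in cycling cells. Targets of SRF and YAP, which read the state of actin and cell shape, included 15 of 37 higher (40.5%) and 3 lower (8.11%). With the medians set equal, 9 were higher and 5 lower, where 8.71% of all genes were higher and 14.9% lower. Acta1 (skeletal actin) had 14.9 in early G1, against 1.74 in asynchronous cells (log2 ratio 3.03). Ankrd1, a YAP target, had 6.69 in early G1 cells and 1.03 in cycling cells, and Ctgf 319 in early G1 and 87.9 in cycling cells. Cnn1 (calponin, which binds actin) had 7.19 in early G1, against 2.10 in asynchronous cells. The opposite was seen for Tpm2 (tropomyosin), with 1.96 in early G1 cells and 5.56 in cycling cells, and Flnc (filamin C), with 3.62 in early G1 and 9.68 in cycling cells. The main cytoplasmic actin Actb had 166 in early G1, against 230.2 in asynchronous cells. The Acta1 promoter is shown because it leads this list and holds a CArG box, the site SRF binds, in capitals.
Acta1, chr8:123894726-123895025, minus strand: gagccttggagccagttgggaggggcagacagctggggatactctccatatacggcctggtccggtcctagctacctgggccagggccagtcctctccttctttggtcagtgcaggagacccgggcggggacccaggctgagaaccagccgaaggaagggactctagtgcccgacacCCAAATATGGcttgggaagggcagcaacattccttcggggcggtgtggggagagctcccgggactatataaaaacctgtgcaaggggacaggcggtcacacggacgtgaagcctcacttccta
Of 31 promoters of the list, 7 (22.6%) held a CArG box, against 1.23% of all promoters. These 7 had a median of -0.29 relative to the median gene and the other 24 a median of 0.51. In this list the genes with the box had the lower median, but 3 of the 7 were higher and 0 lower. Of the 24 without it, 9 were higher and 3 lower, so the counts do not share the direction of the medians.

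The list of ATF4 and unfolded protein response genes, which holds enzymes of amino acid synthesis and chaperones of the endoplasmic reticulum, lay below the median gene. Of 39, 9 were lower (23.1%, against 9.53% of all genes) and 2 higher (5.13%, against 17.7%). The list median was -0.71 relative to the median gene. Beside Nupr1 and Chac1, the lower genes included enzymes of serine and one-carbon metabolism. Phgdh, the first step of serine synthesis, had 1.54 in early G1 cells and 9.45 in cycling cells. Shmt2, the mitochondrial serine hydroxymethyltransferase, had 9.96 in early G1 and 46.8 in cycling cells, and Mthfd2 had 14.5 in early G1, against 35.7 in asynchronous cells. Stc2 (stanniocalcin) had 5.76 in early G1 cells and 36.6 in cycling cells. Atf4 itself had 348 in early G1 and 468 in cycling cells, within 2-fold. Sesn2, which is also a p53 target, was higher at 131 in early G1, against 54.4 in asynchronous cells. Asns (asparagine synthetase) had 94.5 in early G1 cells and 53.6 in cycling cells, and the endoplasmic reticulum chaperone Hspa5 210.5 in early G1 and 261 in cycling cells, both within 2-fold. The promoters of Chac1 and Nupr1 are shown with the ATF4 element searched (TGATGNAA, either strand) in capitals.
Chac1, chr2:119350992-119351291, plus strand: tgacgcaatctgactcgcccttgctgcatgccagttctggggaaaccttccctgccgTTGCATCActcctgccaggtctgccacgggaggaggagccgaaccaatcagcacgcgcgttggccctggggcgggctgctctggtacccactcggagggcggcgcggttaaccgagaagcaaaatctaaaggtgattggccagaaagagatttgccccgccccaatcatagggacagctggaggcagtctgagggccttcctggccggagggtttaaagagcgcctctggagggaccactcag
Nupr1, chr7:126625421-126625720, minus strand: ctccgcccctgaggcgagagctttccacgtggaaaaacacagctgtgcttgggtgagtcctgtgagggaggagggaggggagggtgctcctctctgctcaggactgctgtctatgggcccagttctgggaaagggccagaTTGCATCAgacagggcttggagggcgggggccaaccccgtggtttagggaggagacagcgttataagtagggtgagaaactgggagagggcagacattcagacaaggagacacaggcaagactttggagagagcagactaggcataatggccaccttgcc
Each holds 1 such element. Of 31 promoters of the list 8 (25.8%) held one, against 2.16% of all promoters. Their median was -1.10 relative to the median gene, against -0.71 for the other 23. Of the 8, 2 were lower and 1 higher, and of the other 23, 4 were lower and 1 higher. The higher one of the 8 was Atf3, the highest of the list, with 23.9 in early G1, against 6.12 in asynchronous cells.

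Several groups of growth and housekeeping genes also lay below the median gene. Cytosolic ribosomal protein genes had a median of -0.70 relative to it, with 5 of 76 lower (6.58%, against 9.53% of all genes) and none higher. The other 71 lay within 2-fold. Rpl39 had 132 in early G1, against 297 in asynchronous cells, and Rpl13 257 in early G1 cells and 568 in cycling cells. At the other end, Rpl41 had 641 in early G1 and 363 in cycling cells. Processed pseudogenes of these genes may have taken some of their reads. Glycolysis genes had a median of -0.64, with Ldha (lactate dehydrogenase) at 29.9 in early G1, against 73.3 in asynchronous cells, and Pfkp (phosphofructokinase) at 8.51 in early G1 cells and 20.6 in cycling cells. Gapdh had 222 in early G1 and 405 in cycling cells and stayed within 2-fold. Tubulin genes had a median of -0.77, with 6 of 16 lower (37.5%, against 9.53% of all genes) and 2 higher (12.5%, against 17.7%). Tubb5, the main beta tubulin, had 163 in early G1, against 382 in asynchronous cells. Tuba1c had 38.4 in early G1 cells and 136 in cycling cells. Tubb6 ran the other way, at 36.5 in early G1 and 17.9 in cycling cells. Cholesterol synthesis genes had a median of -0.38, with 3 of 25 lower (12%, near the 9.53% of all genes). Among the 3 was Fdps (farnesyl diphosphate synthase), at 8.22 in early G1, against 19.2 in asynchronous cells. The 20 genes of the NRF2 response to oxidative stress had none past 2-fold in either direction.

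Genes that build the transcription machinery lay above the median gene. Of 22 regulators of pause release, which free polymerase from the promoter-proximal pause, 8 were higher (36.4%, against 17.7% of all genes) and none lower. The list median was 0.51 relative to the median gene. Ccnt1, the cyclin of the elongation kinase P-TEFb, had 39.3 in early G1 cells and 14.1 in cycling cells. Ell3, an elongation factor, had 86.3 in early G1 and 16.2 in cycling cells, and Cdk13 22.6 in early G1, against 9.67 in asynchronous cells. The P-TEFb inhibitor Hexim1 stayed within 2-fold, with 109 in early G1 cells and 186 in cycling cells. RNA polymerase II and its general factors had a median of 0.33, but with 5 of 40 higher (12.5%) the share past 2-fold was under the 17.7% of all genes. Among the 5 was the core subunit Polr2b, at 52.3 in early G1 and 17.4 in cycling cells. Paf1, a subunit of the elongation complex of that name, was lower, with 22.0 in early G1, against 54.7 in asynchronous cells. RNA processing and ribosome assembly gave like medians: 0.33 for 57 splicing factors and 0.30 for 53 ribosome biogenesis genes, each with 8 members higher (14.04% of splicing factors and 15.1% of ribosome biogenesis genes, both under the 17.7% of all genes). Snrpd2, a core snRNP protein, had 47.3 in early G1 cells and 10.5 in cycling cells, and Polr1a, the large subunit of RNA polymerase I, 47.2 in early G1 and 17.6 in cycling cells. The 42 proteasome genes had a median of 0.39, with 8 higher (19.05%, near the 17.7% of all genes) and 1 lower. Psmb6, a catalytic subunit, had 30.1 in early G1, against 8.58 in asynchronous cells, and the interferon-linked activator Psme1 14.8 in early G1 cells and 33.1 in cycling cells. Oxidative phosphorylation had 13 of 75 higher and none lower. That share is close to the 17.7% of all genes.

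**Figure D3:**
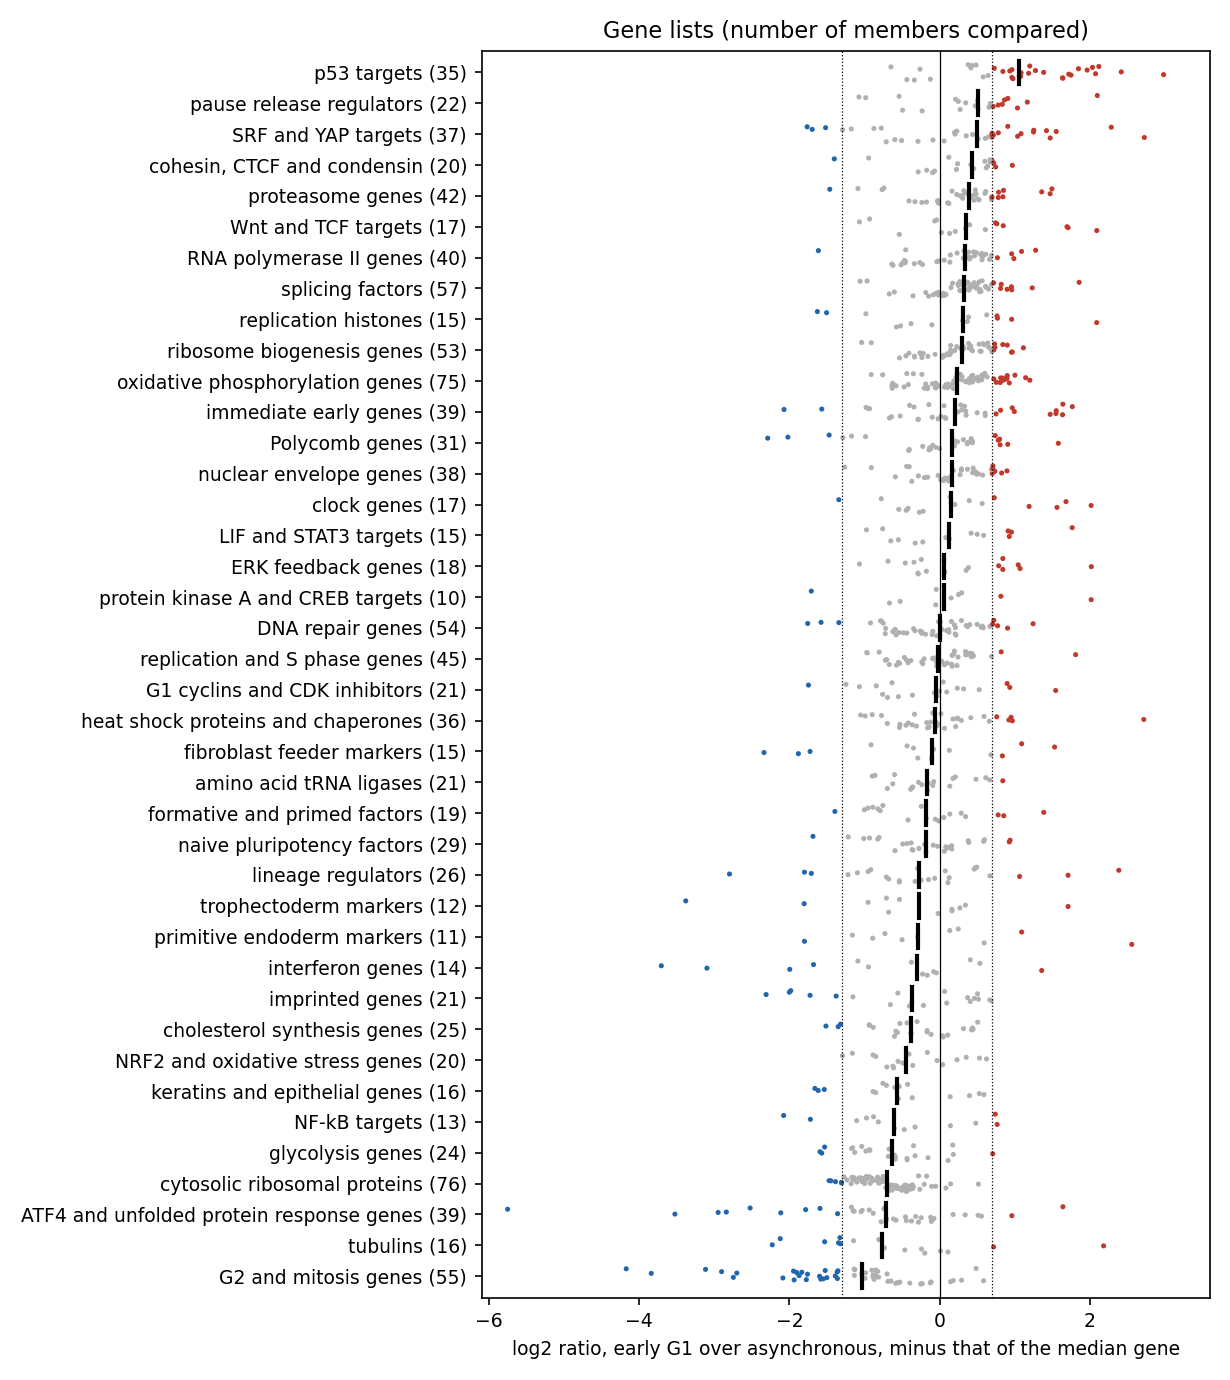
Each point is 1 gene of a list, placed by its log2 ratio of early G1 to asynchronous cells relative to the median gene, for the 40 lists with at least 10 members compared, with the list median as a black bar, dotted lines at 2-fold, and higher genes red and lower genes blue. p53 targets stand at the top with 24 higher and 0 lower of 35, and G2 and mitosis genes at the bottom with 0 higher and 23 lower of 55.

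The pluripotency network was close to the median gene 1 h after release. Of 29 naive factors, 2 were higher (6.90%, against 17.7% of all genes) and 1 lower (3.45%, against 9.53%). Pou5f1 (Oct4) had 113 in early G1 and 139 in cycling cells. Sox2 had 299 in early G1, against 226 in asynchronous cells, and Nanog 148 in early G1 cells and 136 in cycling cells. These core factors were already near the level of cycling cells, with Klf4 at 193 in early G1 and 147 in cycling cells and Esrrb at 84.2 in early G1, against 61.0 in asynchronous cells. The factors past 2-fold were Nr5a2, at 33.2 in early G1 cells and 13.97 in cycling cells, Tfcp2l1, at 95.5 in early G1 and 40.6 in cycling cells, and the lower one, Prdm14, at 9.29 in early G1, against 24.4 in asynchronous cells. Formative and primed factors had 3 higher (15.8%, near the 17.7% of all genes) and 1 lower (5.26%) of 19. Lineage regulators had 3 higher and 3 lower of 26 (11.5% each way, against 17.7% and 9.53% of all genes). Among them the nodal antagonist Lefty1 had 0.462 in early G1 cells and 3.07 in cycling cells, and Lhx1, a factor of the early embryo's organizer, 3.42 in early G1 and 0.444 in cycling cells.

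Signalling targets were read in medium that held a GSK3 inhibitor, which raises Wnt signalling, and a MEK inhibitor, which blocks ERK. Of 17 Wnt and TCF targets, 6 were higher in early G1 (35.3%, against 17.7% of all genes) and none lower. Sp5, a direct target, had 38.2 in early G1, against 9.47 in asynchronous cells, and Axin2, the feedback inhibitor, 51.2 in early G1 cells and 24.4 in cycling cells. Nkd2, another inhibitor, had 15.8 in early G1 and 2.93 in cycling cells. Of 18 ERK feedback genes, 6 were higher (33.3%) and none lower, with a median of 0.07 relative to the median gene. The inhibitor Spred3 had 71.5 in early G1, against 14.2 in asynchronous cells, and Spry2 92.4 in early G1 cells and 41.7 in cycling cells. Of 15 LIF and STAT3 targets and components, 4 were higher (26.7%, against 17.7% of all genes) and none lower. The list median was 0.13 relative to the median gene. Among the 4 were both receptor chains. Il6st (gp130) had 24.7 in early G1 and 10.2 in cycling cells, and Lifr 32.0 in early G1, against 13.7 in asynchronous cells. The other 11 lay within 2-fold. Socs3 was one, at 62.6 in early G1 cells and 79.6 in cycling cells, and Pim1 another, at 72.9 in early G1 and 74.0 in cycling cells.

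Polycomb genes had 6 higher and 3 lower of 31, shares of 19.4% and 9.68% that are near the 17.7% and 9.53% of all genes. Bmi1, a subunit of Polycomb repressive complex 1, had 22.7 in early G1 cells and 6.08 in cycling cells, while the chromodomain subunit Cbx2 was lower, at 8.92 in early G1 and 35.6 in cycling cells. Cohesin, CTCF and condensin genes had a median of 0.44 relative to the median gene. Nipbl, the cohesin loader, had 14.6 in early G1, against 6.00 in asynchronous cells. Cdca5 (sororin), which holds sister chromatids together in G2, was the single lower member, at 26.9 in early G1 cells and 57.8 in cycling cells. Nuclear envelope and pore genes had 6 higher (15.8%, against 17.7% of all genes) and none lower of 38. Imprinted genes had 5 lower (23.8%, against 9.53% of all genes) and none higher of 21. The lower ones included Peg10, at 10.2 in early G1 and 27.6 in cycling cells, and Mest, at 12.3 in early G1, against 25.9 in asynchronous cells. The median of imprinted genes ranged from -0.37 to 0.08 relative to the median gene across the alternative settings, so no direction is given for this list.

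Heat shock proteins and chaperones had 5 higher (13.9%, against 17.7% of all genes) and none lower of 36. Their median was -0.06 relative to the median gene. Hspa1a (Hsp70), the highest of them, had 8.40 in early G1 cells and a low signal of 0.944 in cycling cells. The constitutive Hspa8, the lowest, had 334 in early G1 and 560.3 in cycling cells and stayed within 2-fold. Clock genes had 5 higher (29.4%, against 17.7% of all genes) and 1 lower of 17, with a median of 0.15 relative to the median gene. Among them Per2 had 3.02 in early G1, against 0.523 in asynchronous cells. Interferon genes had 4 lower (28.6%, against 9.53% of all genes) and 1 higher of 14, with the antiviral gene Oas1a at 1.23 in early G1 cells and 9.16 in cycling cells and Stat2 at 10.4 in early G1 and 27.1 in cycling cells. Keratins and epithelial genes had a median of -0.57 relative to the median gene, with 3 lower (18.8%, against 9.53% of all genes) and none higher of 16, among the lower ones the adhesion molecule Epcam, at 3.98 in early G1, against 10.4 in asynchronous cells. DNA repair genes had 5 higher (9.26%) and 3 lower (5.56%) of 54, both under the 17.7% and 9.53% of all genes. Their median was at the median gene (0.01). H2afx, whose protein marks broken DNA when phosphorylated, was the lowest of them at 224 in early G1 cells and 613 in cycling cells.

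The ratio varied with the length of the gene. Over 14191 compared genes with a RefSeq span, the median log2 ratio of early G1 to asynchronous cells was 0.01 under 2 kb and 0.59 at 50 to 100 kb, and it was 0.11 for the 526 genes over 200 kb. The share higher was 25.5% at 50 to 100 kb and 13.1% over 200 kb. Late G1, set against the same asynchronous column, had no such turn: its median was 0.32 at 50 to 100 kb and 0.68 over 200 kb. Of the 526 genes over 200 kb, 410 (77.9%) were higher in late G1 than in early G1, against 46.0% of all genes. Single long genes differed widely. Utrn (utrophin) had 61.6 in early G1 and 13.3 in cycling cells, and 172 in late G1. Tead1, the DNA-binding partner of YAP, had 59.0 in early G1, against 17.8 in asynchronous cells, and 37.5 in late G1. Magi2, a synaptic scaffold, had 743 in early G1 cells and 871 in cycling cells, and 841 in late G1. The turn was also seen at higher signal: among genes above the median of mean signal the median ratio was 0.80 at 50 to 100 kb and 0.43 over 200 kb. The position of the signal within these genes cannot be read from 1 value per gene.

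**Figure D4:**
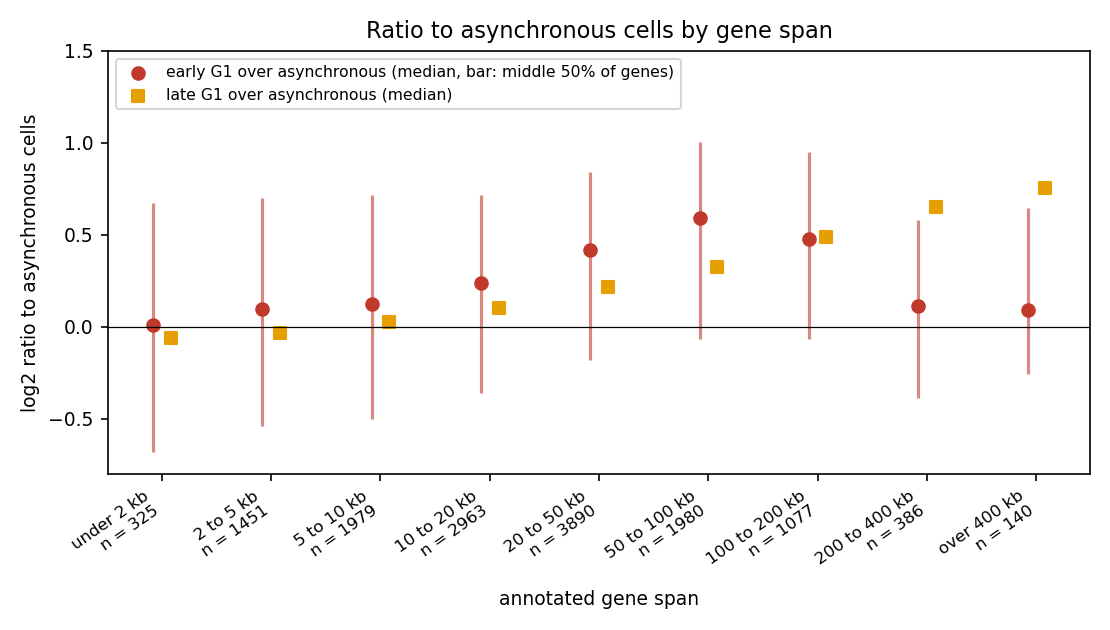
Median log2 ratio to asynchronous cells by RefSeq gene span, for early G1 (circles, with a bar over the middle 50% of genes) and late G1 (squares). The early G1 median peaks at 0.59 for genes of 50 to 100 kb and is 0.09 for those over 400 kb, where the late G1 median is 0.75.

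The promoter letters of the higher and lower genes differed. RefSeq promoters were matched to 10666 genes of the table, of which 10552 were compared. Ranked by CpG content in quintiles, the share of genes lower in early G1 was 18.2% in the quintile poorest in CpG and 3.51% in the richest, while the share higher was 20.7% and 18.9% in these quintiles. The ETS motif CCGGAAGT, on either strand, was in 8.27% of all promoters, in 10.1% of those of higher genes and in 2.71% of those of lower genes. The CRE, TGACGTCA, was in 3.74% of higher and 1.84% of lower promoters, against 3.34% of all. Of the 352 genes with a CRE, 246 had a promoter at or above the median CpG content. All 352 genes with a CRE, of any CpG content, were lower in 4.83% of cases. The share was 4.70% for all 5276 genes at or above the median CpG content, which is not a matched set. Within those 5276 genes, the median relative to the median gene was 0.14. It was 0.32 for the 246 with a CRE and 0.30 for the 578 with an ETS motif. The CHR element was in 11.3% of all promoters, 10.4% of the higher and 14.7% of the lower. It was in 32 of 46 promoters (69.6%) of the G2 and mitosis list. Within that list, genes with the element had a median of -1.13 relative to the median gene, and the 14 without it -0.99, and 15 of the 32 with the element and 3 of the 14 without it were lower. Outside the list, the 1159 genes with a CHR element had a median log2 ratio of 0.29, near that of all genes. Of these, 10.4% were lower in early G1, against 8.75% of all genes with a promoter. A match is a description of letters and not of binding.

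**Figure D5:**
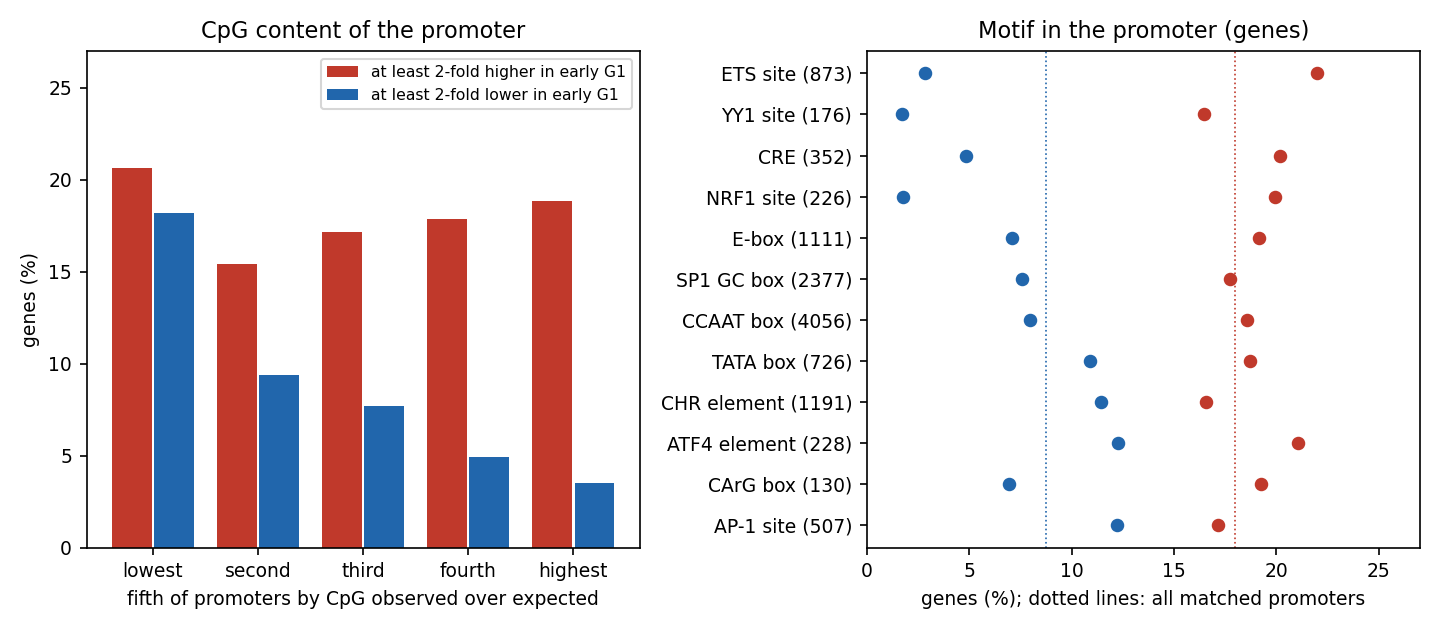
Share of genes (%) higher (red) and lower (blue) in early G1, by quintile of promoter CpG content on the left and, on the right, among genes whose promoter holds a motif, for motifs found in at least 100 genes, with dotted lines for all genes with a promoter. The share of lower genes is 18.2% in the CpG-poorest quintile and 3.51% in the richest.

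Position in the genome and family membership were described last. The median log2 ratio was 0.52 on the X chromosome (414 genes) and 0.30 on the autosomes, with 0.55 on chromosome 18 and 0.11 on chromosome 11. Ratios of neighbouring genes were weakly correlated. Over 2524 pairs of adjacent start sites under 10 kb apart, Pearson's r was 0.32 and Spearman's rho 0.31. Over 4178 pairs more than 100 kb apart they were 0.07 and 0.08. These pairs share genes and may share reads, and no p is given. Among 90 groups of at least 15 genes with a common symbol stem, the semaphorins (Sema), guidance cues for axons and vessels, had the lowest median, -0.93 relative to the median gene. Of 15 semaphorins, 5 were lower (33.3%, against 9.53% of all genes) and 2 higher (13.3%, against 17.7%). Their signal was low, with medians of 3.98 in early G1 and 6.25 in asynchronous cells. Sema4c had 3.98 in early G1 and 20.4 in cycling cells, and Sema6a, which ran the other way, 10.6 in early G1, against 1.36 in asynchronous cells. DEAH-box RNA helicases (Dhx) had a median of 0.57, with Dhx8, a splicing helicase, at 29.5 in early G1 cells and 11.5 in cycling cells. Ubiquitin conjugation genes (Ube) had 12 of 37 higher (32.4%, against 17.7% of all genes) and 2 lower (5.41%, against 9.53%). Olfactory receptor genes (Olfr) had the highest median, 0.66. Of 33, 16 were higher (48.5%, against 17.7% of all genes) and 6 lower (18.2%, against 9.53%). These genes could pass the minimum mean, taken over 4 columns, through early or late G1 signal alone. In late G1 their median log2 ratio to asynchronous cells was 1.51, against 0.96 in early G1. Their signal was low: the median member had 2.19 in early G1, against 0.990 in asynchronous cells. Their median ranged from 0.04 to 0.94 relative to the median gene across the alternative settings.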

How the data were processed

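The authors deposited 1 column of normalized PRO-seq signal for each of 4 groups. The sources used here do not say how the 2 libraries of a group were combined, how reads were assigned to genes and strands, or how columns were scaled. Per the submitters' processing notes, the tools were SAMtools, Picard, Bowtie2 and cutadapt and the build GRCm38 (mm10). The early G1 column was taken as the release of 1 h, and late G1 as that of 3 h, by meaning alone.

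The ratio is log2 of (signal + 0.1) in early G1 minus the same in asynchronous cells, which understates the change of low genes. Genes with a mean under 0.5 over the 4 columns (47) or a 0 in either column (153) were left out. The planned limma fit needed library columns and was not run, so 2-fold counts replace it, with no p-value or SD. The counting step was tested on simulated data. Gene symbols were matched to RefSeq (GRCm38.p6): 14401 directly, 207 by synonym and 253 not at all. Promoters and their sequences are RefSeq's.

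Members, lists and rules were chosen with earlier results of these data known. Named genes are the 12 highest and 12 lowest ratios at or above the median signal, without predicted names, the 4 largest of each list and 15 genes always given. Other genes, and the gene families, were named after their values were seen. Alternatives were another pseudocount, minimum, scaling and overlap rule. Computations used Python 3.11.15, pandas 2.3.3, NumPy 2.4.6, SciPy 1.17.1 and matplotlib 3.10.9.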

Additional observations from a re-analysis of the deposited data

How the results depend on the processing

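The count of genes at least 2-fold higher in early G1 was 2596 as reported, 1277 with equal medians, 1573 with equal totals, 1581 after quantile normalization and 1663 without genes that overlap another. The count at least 2-fold lower was 1397 as reported, 925 with a minimum mean of 2.5, 2181 with equal medians and 877 without overlapping genes. With equal totals it was 1906, and after quantile normalization 1835. The median of primitive endoderm markers relative to the median gene was -0.29 as reported and -0.91 without overlapping genes. Counting each setting apart, 439 list medians moved by less than 1.5-fold and 1 by more, and 1127 named-gene values moved by less and 7 by more. List medians are taken relative to the median gene, so setting column medians or totals equal can hardly move them. For named genes these settings shift every value by nearly the same amount, which is under 1.5-fold. Named-gene values under equal medians or totals therefore could not count as moved. The median log2 ratio of all genes, 0.30 as reported, was -0.02 with equal medians. The p53 target median ranged from 1.00 to 1.12 and the G2 and mitosis median from -1.16 to -0.999. Both ranges are relative to the median gene, so rescaling a column by a constant could hardly widen them. The contrast of spans over 200 kb with 50 to 100 kb was -0.48 as reported and -0.30 after quantile normalization. No paired analysis was possible because the table holds 1 combined column per group, and no library could be left out for the same reason. The cause was not tested. Depth is unknown, so no limit on low genes can be given.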
